A study of Caenorhabditis elegans with 26 samples.

Results

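The mitochondrial ribosomal protein genes are the nuclear genes whose symbols start with mrpl- (large subunit) or mrps- (small subunit). The gene table holds 71 of them, 42 mrpl- and 29 mrps-, and 59 were measured (34 large subunit, 25 small subunit) among 17138 genes with a usable probe set. A gene was measured where a probe set named it alone, and where several did, the brightest over the 26 arrays stands for it. The genes were chosen by name only. No member in the gene table lies on the X chromosome. The 59 measured members are spread over chromosomes I (13), II (11), III (19), IV (7) and V (9). The other 12 were mrpl-13, mrpl-21, mrpl-36, mrpl-39, mrpl-42, mrpl-46, mrpl-53, mrpl-58, mrps-7, mrps-18A, mrps-24 and mrps-30, and they are not analysed here. Of these, mrpl-13 and mrpl-58 are on probe sets that also name another gene.

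Expression was measured in Caenorhabditis elegans embryos, taken from bleached gravid adults, on 26 arrays. The series concerns dosage compensation, in which a condensin-like complex lowers the output of both X chromosomes in XX embryos. Embryos called sdc-2 here were XX, carried sdc-2(y93) and came from worms fed bacteria of the Ahringer library that carry an sdc-2 plasmid (RNAi plates, 3 arrays). Their controls were wild-type N2 XX embryos from worms fed bacteria whose plasmid has no insert (RNAi plates, 3 arrays). Embryos called dpy-27 were XX with dpy-27(y57) (NG plates, 3 arrays), and their controls were wild-type XX embryos from NG plates (3 arrays). Embryos called XO were of strain TY2222, with 1 X chromosome and 4 mutations, namely sdc-2(y74), xol-1(y9), unc-9(e101) and her-1(hv1y101) (egg plates, 8 arrays). Their controls were wild-type XX embryos from egg plates (6 arrays). The XO embryos therefore differ from their controls in the number of X chromosomes and in 4 genes at once. SDC-2 recruits the complex to the X chromosome, and DPY-27 belongs to its condensin-like part. Wild-type XO embryos have no active complex.

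Mitochondrial ribosomes make the few proteins encoded in mitochondrial DNA, all of them parts of the respiratory chain or ATP synthase. Their proteins are encoded in the nucleus, made by cytosolic ribosomes and imported. In C. elegans, knockdown of mitochondrial ribosomal proteins, mrps-5 among them, is known to induce the mitochondrial unfolded protein response and to lengthen life. Subunit composition is partly inherited from bacteria. Members numbered up to 36 in the large and up to 21 in the small subunit carry the numbers of bacterial homologues (36 measured). Those with higher numbers (23 measured) lie outside that numbering. The split is by number alone, and a higher number does not exclude a bacterial homologue.

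The titles carry dates, written here as codes 1 to 5 in calendar order, and what was done on a date is not stated. The sdc-2 arrays carry code 5 and their controls code 3, and the dpy-27 arrays carry code 1 and their controls code 2, so genotype and date cannot be told apart in either comparison. The XO arrays carry code 2 (3 arrays) or code 5 (5 arrays), and the egg-plate controls code 2 (3 arrays) or code 4 (3 arrays). Code 2 thus gives a comparison of XO and wild type within a date. Arrays of the same group and date correlated at 0.984 to 0.999 over genes. The deposited log2 values had a different spread on each plate type, so mutants were set only against wild type of their own plate type. The sdc-2 signal was 4.18 to 4.55 on XO arrays, against 9.08 to 9.85 on the egg-plate wild-type arrays. On the sdc-2 arrays it was 9.37 to 9.90, against 9.93 to 10.09 in wild type (log2 change -0.36, SE 0.17, limma adjusted p = 0.158), which did not pass the test. The dpy-27 signal was 10.37 to 10.55 on dpy-27 arrays and 10.41 to 10.59 in wild type. Among X-linked genes brighter than the median gene (1268), 591 were called higher in sdc-2 embryos, 673 higher in dpy-27 embryos and 894 lower in XO embryos of date code 2.

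The members were bright. The median over members stood at the 76.1 to 77.3 percentile of all genes on the sdc-2 arrays, against 82.4 to 83.6 on their controls. It stood at 78.3 to 79.3 on the dpy-27 arrays, against 82.5 to 83.0 in wild type, and at 78.5 to 84.9 on the XO arrays, against 81.5 to 84.7 in wild type. Brightness depends on the probe set as well as on the messenger, so values of different members are not compared as amounts. By mean over all 26 arrays, mrps-11, mrps-14 and mrps-5 had the highest values (11.33, 10.77 and 10.73 on the log2 scale). The lowest were mrpl-45 (4.79), mrps-31 (4.98) and mrps-26 (5.92). mrpl-45 lay under the lower quartile of all genes on 24 arrays and mrps-31 on 14 arrays, and neither passed the test in the sdc-2, dpy-27 or XO comparison. Of the kept probe sets, 13 end in _s_at or _x_at and may match more than 1 transcript.

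Mitochondrial ribosomal protein genes fell in sdc-2 XX embryos across both subunits. A gene is called changed at a limma adjusted p under 0.05, two-sided, over all genes. Of 59 members limma called 44 lower and 0 higher (51 and 0 at an unadjusted p under 0.05), where 11.5% of all genes were called lower and 8.27% higher. The median change over members was -0.65 on the log2 scale, against 0.02 over all genes and -0.19 over the 7276 autosomal genes brighter than the median gene. Among those brighter autosomal genes 25.3% were called lower. All 3 sdc-2 arrays lay below all 3 wild-type arrays for 51 members, and such a separation was seen for 21.8% of all genes. Of the 7276 brighter autosomal genes 3106 were separated in that direction. The change was below 0 for 58 members, the exception being mrps-14, a small subunit member with a bacterial homologue (0.08, SE 0.11). Because these are whole embryos, fewer cells of a type and less RNA per cell cannot be told apart.

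Members of both subunits fell in sdc-2 embryos. Of the large subunit members 27 of 34 were called lower (median -0.70), and of the small subunit members 17 of 25 (median -0.65). Of those with bacterial numbers 28 of 36 were called lower, and of those with higher numbers 16 of 23. mrps-2 and mrpl-4, neighbours on chromosome V, changed by -0.37 (not called) and -1.06 (called). The mrpl-4 probe set that was not kept fell less (-0.47, SE 0.16, limma adjusted p = 0.0416). The calls came from every autosome: 11 of 13 members on chromosome I, 8 of 11 on II, 12 of 19 on III, 7 of 7 on IV and 6 of 9 on V. The plot of the 59 members shows the sdc-2 changes in order of size, beside those of the other mutants.

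**Figure D1:**
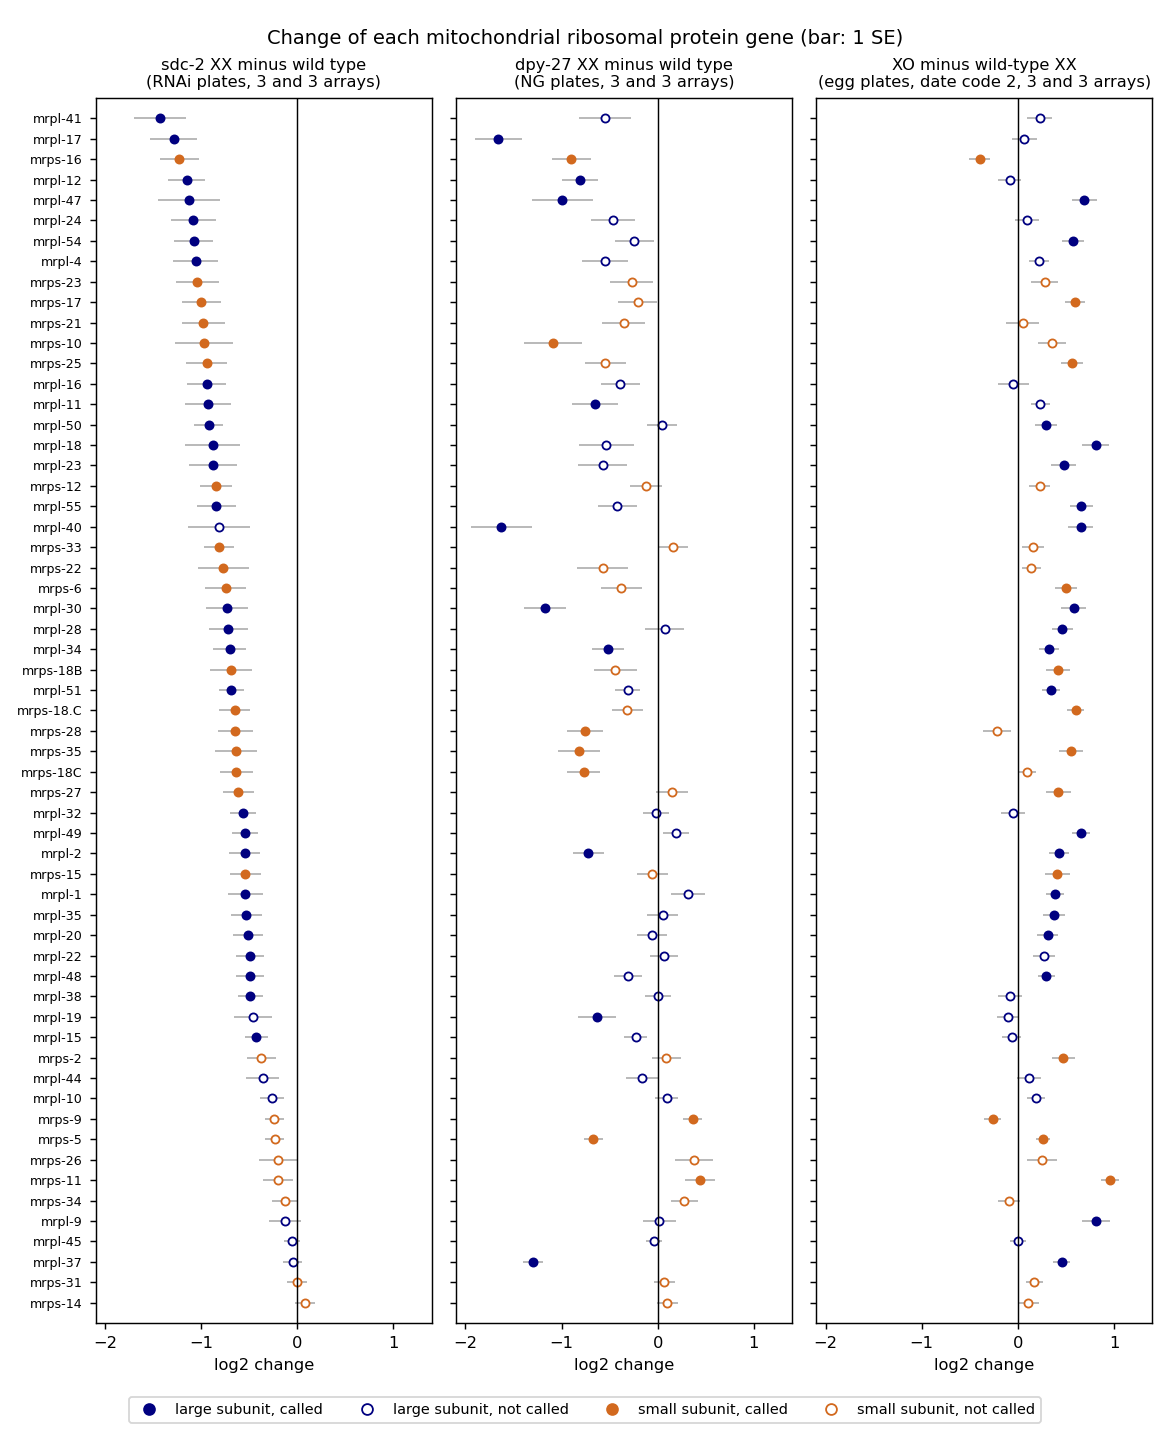
Log2 change of each of the 59 members (1 row per gene, large subunit blue, small subunit orange) in sdc-2 XX embryos, dpy-27 XX embryos and XO embryos of date code 2, each against wild type of its plate type. Bars are 1 SE, filled points passed limma's adjusted p under 0.05 (44, 18 and 32 members), and the sdc-2 changes run from -1.43 (mrpl-41) to 0.08 (mrps-14).

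The largest fall among the called members was that of mrpl-41, a large subunit protein found in mitochondrial ribosomes only. Its log2 values were 8.51, 8.03 and 8.48 on the sdc-2 arrays, against 9.70, 9.80 and 9.81 in wild type. The groups were far apart, a 2.70-fold fall (log2 change -1.43, SE 0.27, limma adjusted p = 0.000734). mrpl-17, the homologue of bacterial L17, had 8.64, 7.90 and 8.46 on the sdc-2 arrays, against 9.53, 9.59 and 9.75 in wild type. The lowest of those arrays, replicate B, was also the one with the lowest median over members, and the fall was 2.44-fold (-1.29, SE 0.25, adjusted p = 0.000833). mrps-16, the homologue of bacterial S16, had 7.80, 7.15 and 7.55 on the sdc-2 arrays, against 8.70, 8.65 and 8.83 in wild type. This was a 2.34-fold fall (-1.23, SE 0.20, adjusted p = 0.000218), and its other probe set fell too (-0.90, SE 0.19, adjusted p = 0.00153). mrpl-12, whose human counterpart is part of the L7/L12 stalk and has been found to bind mitochondrial RNA polymerase, had 8.37, 8.00 and 8.27 on the sdc-2 arrays, against 9.28, 9.36 and 9.46 in wild type. Its fall was 2.22-fold (-1.15, SE 0.19, adjusted p = 0.000212). Members that did not pass the test included mrps-5 (-0.24, SE 0.10, adjusted p = 0.099) and mrpl-37 (-0.05, SE 0.10, adjusted p = 0.824).

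Per array, the median over members of the difference from the wild-type mean was -0.59, -0.83 and -0.57 on sdc-2 replicates A, B and C, against -0.05, -0.03 and 0.06 in wild type. Of the 59 members 58, 58 and 55 lay below the wild-type mean on the 3 sdc-2 arrays. Replicate B was the lowest also over the brighter autosomal genes (-0.30, against -0.18 and -0.11 on replicates A and C). Without sdc-2 replicate B 23 members were called lower, and without wild-type replicate C 25, while the median change stayed between -0.71 and -0.57 over the arrays left out. With date as a random block limma called 0 members (11 lower and 0 higher at an unadjusted p under 0.05), at a median of -0.31.

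**Figure D2:**
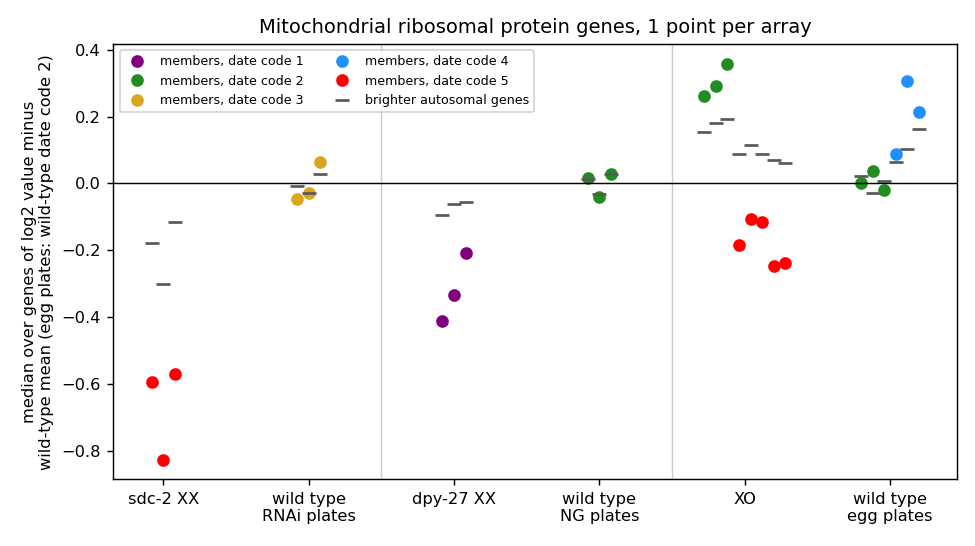
Median over the 59 members, on each of the 26 arrays, of the log2 value minus the wild-type mean of its plate type (egg plates: wild type of date code 2), coloured by date code. Grey dashes give the same for the 7276 brighter autosomal genes. The 3 sdc-2 arrays lie between -0.83 and -0.57 and the 3 dpy-27 arrays between -0.41 and -0.21, while XO arrays lie between 0.26 and 0.36 at date code 2 and between -0.25 and -0.11 at date code 5.

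In dpy-27 XX embryos fewer members fell, and 2 rose. Of 59 members 16 were called lower and 2 higher, where 13.5% of all genes were called lower and 17% higher. The median change was -0.31, against 0.03 over all genes and -0.07 over the brighter autosomal genes, of which 25.2% were called lower. The members' 27.1% called lower is close to that in the 6-group fit, and the members' count differed between fits, as given below. All 3 dpy-27 arrays lay below all 3 wild-type arrays for 31 members, and 23.1% of all genes were separated in that direction. Of the 7276 brighter autosomal genes 2707 were. Large subunit members fell in 10 of 34 cases and rose in 0, and small subunit members fell in 6 of 25 and rose in 2.

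The falls in dpy-27 embryos were led by large subunit members. mrpl-17 had 7.74, 8.00 and 7.80 on the dpy-27 arrays, against 9.49, 9.43 and 9.58 in wild type. All dpy-27 arrays were far below wild type, a 3.15-fold fall (-1.66, SE 0.25, limma adjusted p = 2.31e-05). mrpl-40, found in mitochondrial ribosomes only, had 8.61, 8.77 and 8.71 on the dpy-27 arrays, against 10.38, 10.22 and 10.37 in wild type. It fell 3.09-fold (-1.63, SE 0.32, adjusted p = 0.000416). mrpl-37, also a mitochondrial large subunit protein with no bacterial homologue, had 7.93, 7.82 and 7.89 in dpy-27 embryos, against 9.32, 9.06 and 9.14 in wild type. Its replicates were tight, and it fell 2.46-fold (-1.30, SE 0.10, adjusted p = 1.91e-08). mrpl-30, the homologue of bacterial L30, had 6.93, 7.08 and 6.96 on the dpy-27 arrays, against 8.31, 8.01 and 8.16 in wild type. It fell 2.25-fold (-1.17, SE 0.22, adjusted p = 0.000248).

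In the small subunit, mrps-5, the homologue of bacterial S5 and the member best known from worm ageing work, had 9.75, 9.85 and 9.88 on the dpy-27 arrays, against 10.41, 10.54 and 10.54 in wild type. It fell 1.59-fold (-0.67, SE 0.10, limma adjusted p = 2.01e-05). The 2 members called higher were both small subunit homologues of bacterial proteins. mrps-11 had 11.11, 11.05 and 11.25 on the dpy-27 arrays, against 10.72, 10.83 and 10.56 in wild type (0.44, SE 0.16, adjusted p = 0.0364). mrps-9 had 9.85, 9.82 and 10.03 in dpy-27 embryos, against 9.37, 9.63 and 9.61 in wild type (0.36, SE 0.10, adjusted p = 0.00633). In both, every dpy-27 array was above every wild-type array, but mrps-11 passed the test without wild-type replicate B alone and missed it when any other compared array was dropped (adjusted p = 0.0502 to 0.14), and mrps-9 missed it when wild-type replicate A was dropped (adjusted p = 0.0543).

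The dpy-27 counts differed between fits. With the 6 compared arrays alone 31 members were called lower, and 29 where groups had separate means by date, while 5 were called with date as a random block, which also moved the median change to -0.21. The per-array medians were -0.41, -0.33 and -0.21 on the dpy-27 arrays, against 0.02, -0.04 and 0.03 in wild type, so the groups did not overlap. The plot of 8 members by array shows mrpl-17 and mrps-16 low in both XX mutants, and mrpl-37 and mrps-5 low in dpy-27.

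**Figure D3:**
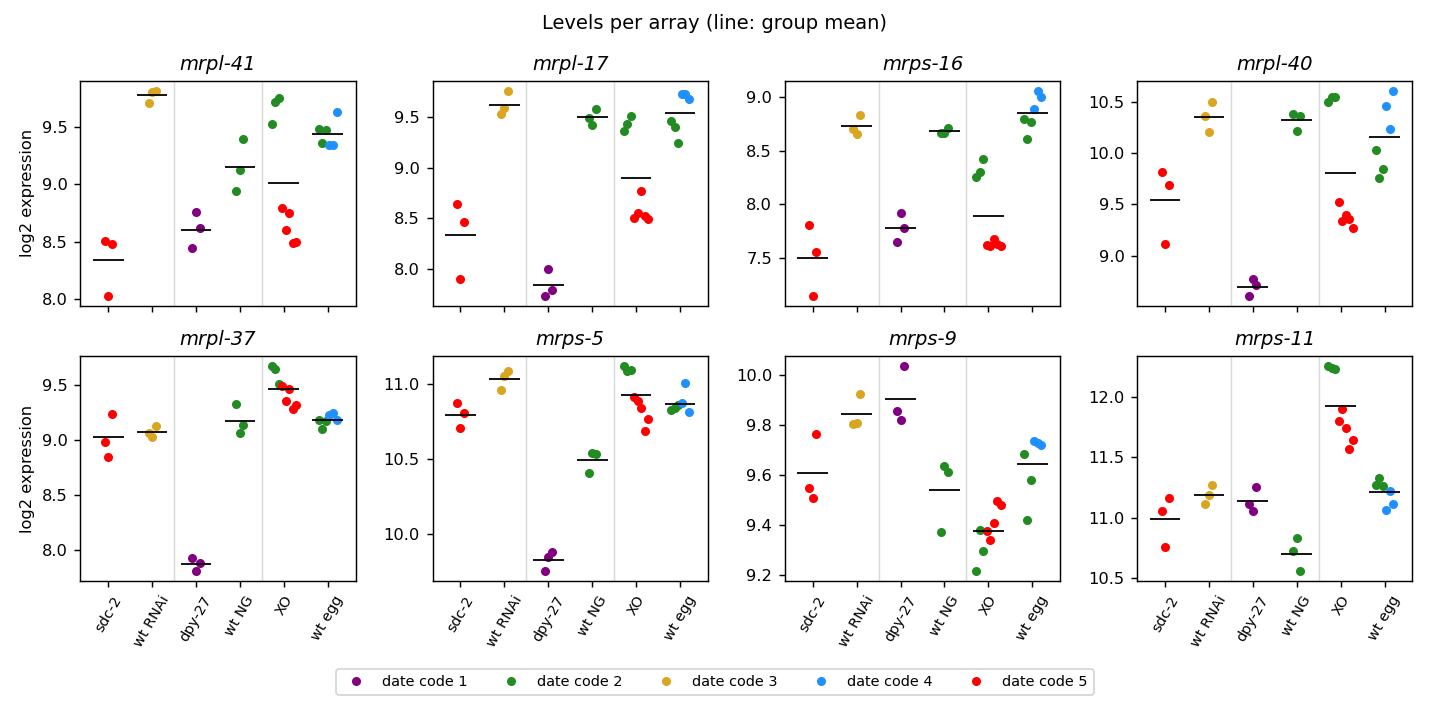
Log2 values of 8 members on each of the 26 arrays, coloured by date code, with the group mean as a line; each mutant stands left of its wild type. mrpl-37 lies at 7.82 to 7.93 on dpy-27 arrays and at 9.06 to 9.32 in wild type of NG plates, and mrps-11 lies at 12.23 to 12.26 on XO arrays of date code 2 and at 11.26 to 11.33 in wild type of that date.

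The calls in the 2 XX mutants were set side by side. Of the 16 members called lower in dpy-27 embryos 12 (75%) were also called lower in sdc-2 embryos, where 74.6% of all members were called lower, and these 12 were 27.3% of the 44 lower in sdc-2 embryos. The comparisons share no arrays. Across the 59 members their changes correlated at a Pearson r of 0.49 (Spearman 0.53), against 0.53 (0.55) across the brighter autosomal genes, as a description of genes measured on the same arrays. Tested within the fit, the dpy-27 change was higher than the sdc-2 change for 6 members (10.2%) and lower for 1. Over all genes 5.68% were called higher and 3.23% lower. Among the brighter autosomal genes 9.48% were called higher, near the members' share, and 5.04% lower. This test sets plate types with unlike scales against each other. The 1 lower member was mrpl-37 (difference -1.25, SE 0.14, limma adjusted p = 1.11e-05). The 6 higher ones, of which mrps-9 was picked by the naming rule, were mrpl-1, mrpl-49, mrpl-50, mrps-9, mrps-27 and mrps-33, and their differences lay between 0.60 (mrps-9) and 0.97. For mrps-5 the difference was -0.43 (SE 0.14, adjusted p = 0.0546).

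In XO embryos the direction of the median change differed between arrays of date code 2 and arrays pooled over all dates. Only code 2 holds both groups, so the pooled comparison mixes genotype with date. Within date code 2, 30 of 59 members were called higher and 2 lower, where 20.8% of all genes were called higher and 19.1% lower. The median change was 0.29, against 0.02 over all genes and 0.19 over the brighter autosomal genes, of which 39.5% were called higher and 20.7% lower. All 3 XO arrays lay above all 3 wild-type arrays for 37 members, as they did for 28.1% of all genes and for 3366 of the 7276 brighter autosomal genes. Over all dates, with 8 XO and 6 wild-type arrays, 17 members were called lower and 4 higher, where 14.1% of all genes were called lower and 15.7% higher, at a median of -0.11. The pooled counts changed with the handling of date: as a random block it left 2 called lower and 22 higher, at a median of 0.20. Leaving out wild-type replicate B of date code 4 gave 10 lower, and leaving out XO replicate A, C, D or E of date code 5 gave 11.

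The calls within date code 2 came from both subunits. Large subunit members were called higher in 19 of 34 cases and lower in 0, and small subunit members in 11 and 2 of 25. These shares called higher, 55.9% and 44%, stand beside the 39.5% of brighter autosomal genes called higher. Small subunit mrps-11 had 12.26, 12.24 and 12.23 on the XO arrays, against 11.27, 11.33 and 11.26 in wild type. It was 1.94-fold higher (0.96, SE 0.10, limma adjusted p = 4.91e-08). At 11.57 to 11.90, its XO arrays of date code 5 also lay above wild type of both dates (11.07 to 11.33). mrpl-37 had 9.67, 9.65 and 9.51 on the XO arrays of date code 2, against 9.18, 9.1 and 9.17 in wild type (0.46, SE 0.09, adjusted p = 0.000206). It was 1.37-fold higher there and stayed above wild type at date code 5 (9.28 to 9.48, against 9.1 to 9.24 in wild type of both dates). mrps-5 had 11.12, 11.09 and 11.10 on the XO arrays, against 10.82, 10.84 and 10.86 in wild type (0.26, SE 0.08, adjusted p = 0.00743). Chosen after their values were seen, mrpl-9 and mrpl-18, both homologues of bacterial proteins, were each 1.75-fold higher (0.81, SE 0.14 each).

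The 2 members called lower within date code 2 were mrps-16 and mrps-9. mrps-16 had 8.25, 8.30 and 8.43 on the XO arrays, against 8.80, 8.60 and 8.77 in wild type (-0.40, SE 0.11, limma adjusted p = 0.00505). Over all dates its log2 values ran from 7.61 to 8.43 with a median of 7.65 in XO, against 8.60 to 9.05 with a median of 8.84 in wild type. The groups did not overlap, and the pooled change was a 1.94-fold fall (-0.96, SE 0.13, adjusted p = 7.72e-06). That pooled change includes date differences within each genotype. mrps-16 was lower in XO arrays of code 5 than in those of code 2 (-0.69, SE 0.10). In wild type it differed by 0.25 (SE 0.11) between code 4 and code 2, which was not called. mrps-16 was thus called lower in sdc-2 embryos, in dpy-27 embryos (-0.90, SE 0.20, adjusted p = 0.00145) and in XO embryos. mrps-9 had 9.22, 9.38 and 9.30 on the XO arrays of date code 2, against 9.69, 9.42 and 9.58 in wild type (-0.26, SE 0.09, adjusted p = 0.0214). The call of mrps-9 was lost without wild-type replicate A (limma adjusted p = 0.123) or C (0.0589), without XO replicate A (0.0907) or C (0.0525), and after re-centring on autosomal genes (0.103).

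Arrays of the same genotype also differed by date. In XO embryos of date code 5 against those of date code 2, limma called 47 of 59 members lower and 0 higher (48 and 0 at an unadjusted p under 0.05), where 19.8% of all genes were called lower and 18.9% higher, at a median of -0.53. All 5 arrays of code 5 lay below all 3 of code 2 for 44 members, against 22.4% of all genes and 2339 of the 7276 brighter autosomal genes. Of the brighter autosomal genes 30.6% were called lower. The largest such falls were those of mrpl-47, chosen after its value was seen (-1.20, SE 0.12), and mrpl-40 (-1.15, SE 0.12). mrpl-40 had 9.52, 9.33, 9.40, 9.36 and 9.27 on XO arrays of code 5, against 10.50, 10.55 and 10.54 on those of code 2. In wild-type embryos of date code 4 against those of date code 2, 19 members were called higher and 1, mrps-33, lower, where 19.9% of all genes were called higher and 18.4% lower, at a median of 0.21. Of the brighter autosomal genes 33.5% were called higher (median 0.11), close to the members' 32.2%. The 1 lower became 0 without replicate B of date code 2 or replicate A of date code 4. The 19 higher became 12 without replicate B of date code 4 and 43 after each array was re-centred on its autosomal genes, a step that moved the median of all genes by 0.17.

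The date difference within XO embryos was set beside the mutant changes. The sdc-2 arrays and the later XO arrays both carry date code 5, and these 2 differences share no arrays. Of the 44 members lower in sdc-2 embryos 40 (90.9%) were also lower in XO embryos of code 5 against code 2, which is 85.1% of those 47, and 79.7% of all members were lower in that difference. The changes correlated at a Pearson r of 0.76 (Spearman 0.78) over the 59 members, against 0.59 (0.62) over the brighter autosomal genes. All 16 members lower in dpy-27 embryos, whose arrays carry code 1, were among the same 47, which hold 79.7% of all members and of which they are 34.0% (r = 0.61, Spearman 0.61). Whether the sdc-2 falls follow genotype or date cannot be told apart.

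**Figure D4:**
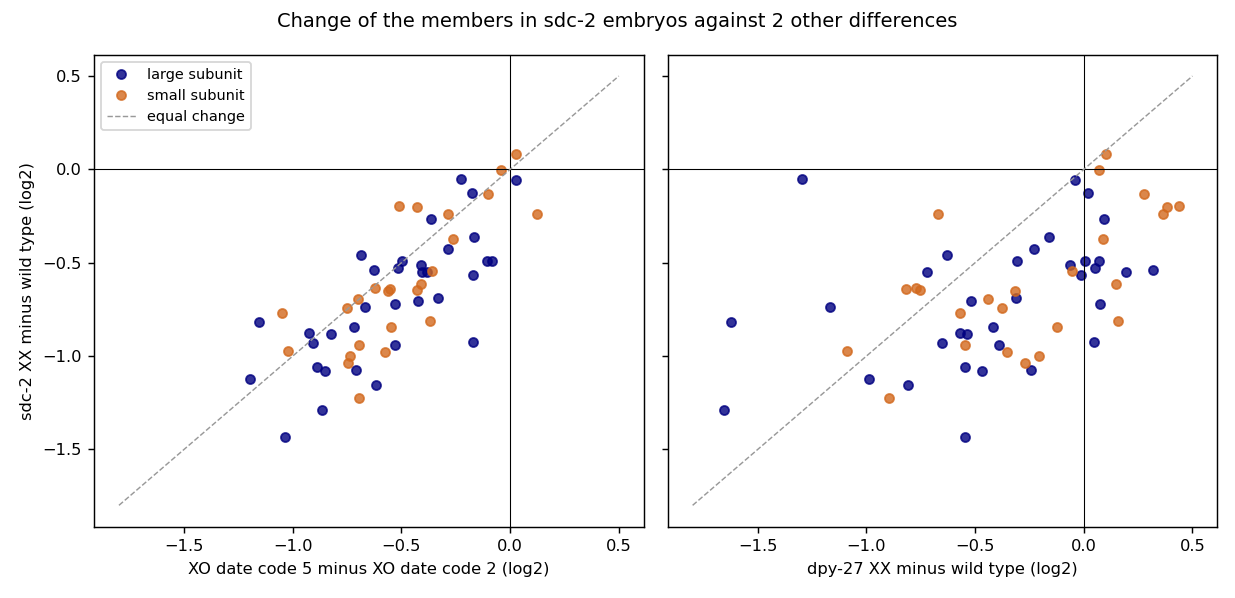
Log2 change of the 59 members in sdc-2 XX embryos (vertical) against the difference between XO arrays of date codes 5 and 2 (left) and against the change in dpy-27 XX embryos (right), with large subunit members in blue and small in orange. The Pearson correlation is 0.76 on the left and 0.49 on the right, where mrpl-37 stands apart at -1.30 in dpy-27 and -0.05 in sdc-2.

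Embryo stage markers were called changed in several of the same comparisons, and their part in the members' changes was not tested. Over all genes 11.5% were called lower and 8.27% higher in sdc-2 embryos, and 13.5% and 17% in dpy-27 embryos. In XO embryos of date code 2 these shares were 19.1% and 20.8%. Among brighter autosomal genes the shares were, in the same order, 25.3% and 7.75%, 25.2% and 18.9%, and 20.7% and 39.5%. Some marker counts are near these shares. Shares for the date differences are given above. Of 20 maternal messages of early embryos 7 were called higher and 0 lower in sdc-2 embryos, 0 higher and 7 lower in dpy-27 embryos, and 6 higher and 2 lower in XO embryos of date code 2. Their summed level, on the log2 scale, was 14.82 to 15.11 in sdc-2 embryos, against 14.34 to 14.58 in wild type. It was 14.87 to 15.15 in dpy-27 embryos, against 15.06 to 15.42 in wild type, and 14.41 to 14.70 in XO embryos of code 2, against 14.25 to 14.47 in wild type of that code. Of 16 measured markers of late embryos and hatched larvae 3 were lower and 1 higher in sdc-2 embryos, 6 lower and 0 higher in dpy-27 embryos, and 11 lower and 0 higher in XO embryos of code 2. Their summed level was 15.39 to 15.46 in sdc-2 embryos (wild type 15.61 to 15.72), 14.14 to 14.29 in dpy-27 embryos (wild type 14.94 to 15.19) and 14.99 to 15.18 in XO embryos of code 2 (wild type 15.52 to 15.57). No marker of either list lay under the lower quartile of all genes throughout a group. Within genotypes, XO arrays of code 5 against code 2 had 6 late markers lower and 7 higher, and wild-type arrays of code 4 against code 2 had 12 lower and 1 higher. Of the early messages 16 were higher and 2 lower in wild-type arrays of code 4 against code 2 (summed level 14.75 to 14.82 at code 4, against 14.25 to 14.47 at code 2), and 6 were higher and 0 lower in XO arrays of code 5 against code 2.

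Markers of the middle stages and of material other than embryos were counted in the same way, and their part was not tested either. The shares over all genes given for the stage markers stand beside these counts too. Of 15 measured zygotic regulators of mid embryos, 1 was lower and 1 higher in sdc-2 embryos, 1 lower and 4 higher in dpy-27 embryos, and 2 lower and 3 higher in XO embryos of code 2. Their summed level was 13.48 to 13.59 in sdc-2 embryos, against 13.17 to 13.26 in wild type, and 13.52 to 13.71 in dpy-27 embryos, against 12.94 to 13.16 in wild type. Within genotypes 7 were lower and 4 higher in XO arrays of code 5 against code 2, and 1 lower and 10 higher in wild-type arrays of code 4 against code 2. Of 7 measured markers of the adult body and yolk, 0 were lower and 1 higher in sdc-2 embryos, 2 lower and 0 higher in dpy-27 embryos, and 2 lower and 0 higher in XO embryos of code 2. Their summed level was 12.39 to 12.64 in dpy-27 embryos, against 12.95 to 13.11 in wild type, and 12.70 to 13.26 in XO embryos of code 2, against 13.60 to 13.64 in wild type of that code. It overlapped between sdc-2 embryos (13.76 to 13.93) and wild type (13.66 to 13.80). Of 9 measured sperm markers limma called 0 in these 3 comparisons, and at an unadjusted p under 0.05 there were 0 in sdc-2 embryos, 1 lower in dpy-27 embryos and 2 higher in XO embryos of code 2. In each group 2 or 3 of the 9 lay under the lower quartile of all genes on every array, where a lack of calls says little. Within genotypes 2 were called lower in XO arrays of code 5 against code 2, and 2 higher in wild-type arrays of code 4 against code 2.

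Other probe sets were measured for 5 members (mrpl-4, mrpl-38, mrpl-44, mrps-16 and mrps-28). The mrps-28 probe set that was not kept fell more in dpy-27 embryos (-1.47, SE 0.20) than the kept one (-0.76, SE 0.18). For mrpl-44, a large subunit protein with a ribonuclease III fold in humans, the probe sets disagreed in dpy-27 embryos. The kept one, which may match several transcripts, changed by -0.16 (SE 0.17, limma adjusted p = 0.538), and another was higher by 0.96 (SE 0.11, adjusted p = 1.56e-06).

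Other genes of mitochondrial protein synthesis were described by the same calls. The shares over all genes given for the stage markers stand beside these and the following lists too. Of 13 measured factors for mitochondrial translation, transcription and genome upkeep, 9 were lower and 0 higher in sdc-2 embryos. These included dap-3, a small subunit protein named outside the mrps- series (-0.86), the elongation factor genes gfm-1 (-0.83) and tufm-2 (-0.76), and the recycling factor gene mrrf-1 (-0.66). Other elongation factor genes changed less, with tsfm-1 called lower (-0.31) and tufm-1 not called (0.001). In dpy-27 embryos 0 of the 13 were lower and 1 was higher, and in XO embryos of date code 2 there were 4 lower and 5 higher. Of 13 aminoacyl-tRNA synthetase genes serving mitochondria, 2 were lower and 0 higher in sdc-2 embryos, 2 lower and 4 higher in dpy-27 embryos, and 0 lower and 8 higher in XO embryos of code 2.

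Genes for mitochondrial import, chaperones and proteases fell in 18 of 27 cases in sdc-2 embryos (1 higher) and in 12 in dpy-27 embryos (2 higher), and in XO embryos of code 2 there were 6 lower and 5 higher. The chaperone gene hsp-60, induced in the mitochondrial unfolded protein response, was lower in dpy-27 embryos (-2.47), in XO embryos of code 2 (-1.35) and in sdc-2 embryos (-0.81). hsp-6, the other chaperone gene used to read out that response, changed by -0.22 in sdc-2 and -0.06 in dpy-27 embryos, neither of which passed, and was lower in XO embryos of code 2 (-0.39).

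The messages that mitochondrial ribosomes translate were not called lower in the mutants. Of the 8 measured genes in mitochondrial DNA, 8 were higher in dpy-27 embryos (median 0.51), 2 in sdc-2 embryos (COX1 0.49 and COX2 0.35) and 1 in XO embryos of date code 2 (ND1 0.34), and 0 were lower in any of these. Messages from the mitochondrial genome are measured here, not the proteins. Among the 43 nuclear genes of the respiratory chain and ATP synthase, 19 were lower and 3 higher in sdc-2 embryos (median -0.33), 30 lower and 3 higher in dpy-27 embryos (median -0.60), and 7 lower and 14 higher in XO embryos of code 2 (median 0.15). The members had the larger share called lower in sdc-2 embryos, 74.6% against 44.2%, and the respiratory chain in dpy-27 embryos, 69.8% against the members' 27.1%. These differences in share were not tested. Of 76 cytosolic ribosomal protein genes 42 were lower in sdc-2 embryos (0 higher), 48 in dpy-27 embryos (3 higher) and 24 in XO embryos of code 2 (2 higher), so that the 2 kinds of ribosome had opposite directions of most calls within date code 2.

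**Figure D5:**
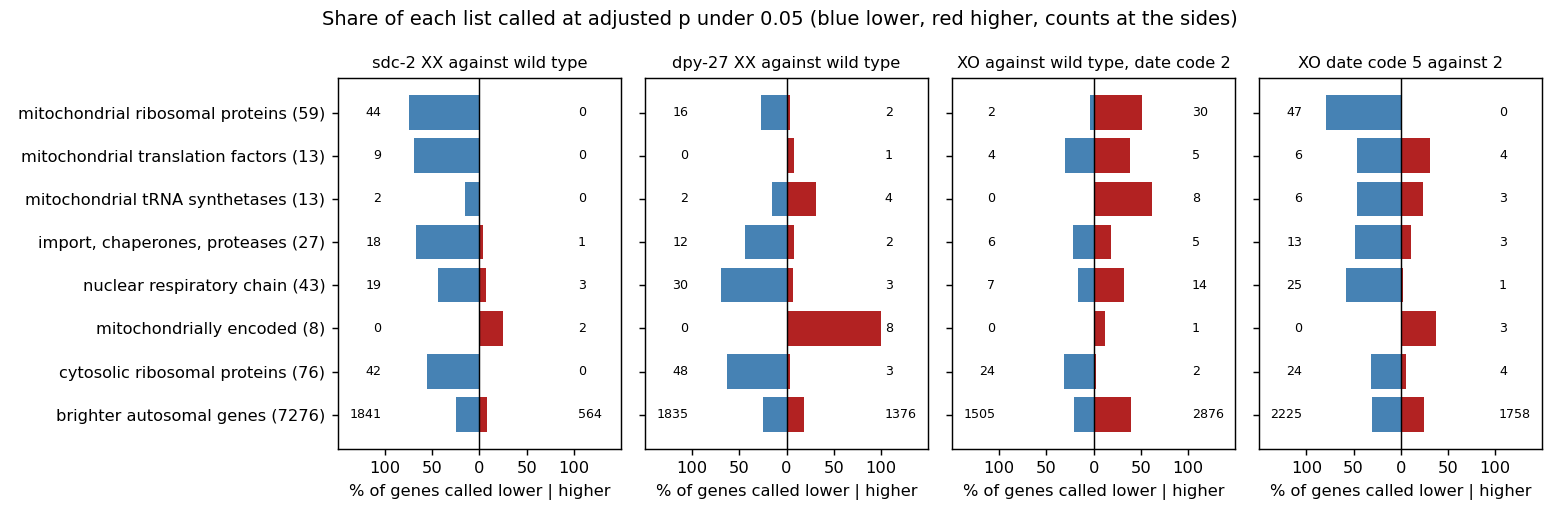
Share of each list called lower (blue, left) and higher (red, right) at limma's adjusted p under 0.05, in 4 comparisons, with the number of genes measured in brackets and the counts at the sides. The mitochondrial ribosomal proteins are mostly lower in sdc-2 embryos (44 of 59) and in XO arrays of date code 5 (47), and mostly higher among those called in XO embryos of date code 2 (30), with cytosolic ribosomal proteins and the 7276 brighter autosomal genes for comparison.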

How the data were processed

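Embryo RNA was profiled on 26 Affymetrix arrays in 6 groups. The deposited values are log2 expression, which the authors obtained with RMA according to the submitters' processing notes (version not given in the sources used here), and run from 3.07 to 14.5. Of 22548 probe sets, 20766 name 1 gene in the platform annotation, 887 several and 895 none, and the brightest was kept per gene. The NCBI gene table gave symbols and chromosomes. The values were used as deposited, with no filter on low values.

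Differences were fitted with limma 3.58.1 in R 4.3.3, with a mean for each of 6 groups on all 26 arrays (20 residual and 3.21 prior degrees of freedom). Comparisons by date used separate group means by date code (18 residual and 6.02 prior). Benjamini-Hochberg adjustment ran over 17138 genes. The fit was tested on simulated data with independent noise and no date effect. That test says nothing on the mixing of genotype and date. Arrays give no read depth, and their number limits the precision. The series calls replicates biological. The p-values measure the spread between arrays within the groups fitted, over all 26 arrays. In the 6-group fit that spread includes date differences within XO and egg-plate wild type, also for the sdc-2 and dpy-27 tests. For mrpl-40 the dpy-27 change had an SE of 0.32, with SDs of 0.08 in dpy-27 and 0.09 in wild type. Its XO SD was 0.60 over all dates, and 0.02 and 0.09 within codes 2 and 5.

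Named members follow a rule: per plate-matched comparison the 4 largest falls and 3 largest rises among called members with separated arrays, mrps-5, the 3 highest and 3 lowest by mean, and members whose probe sets differ in a call. The members, the rule and the lists were chosen with earlier results of these data known. Replicate letters were not taken as pairs.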

Additional observations from a re-analysis of the deposited data

Results flagged for a closer look

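Of 15 differences between the dpy-27 and sdc-2 changes tested for named members, 2 passed. mrpl-37 fell in dpy-27 embryos and not detectably in sdc-2 embryos, and the difference of the changes was -1.25 (SE 0.14, limma adjusted p = 1.11e-05). mrps-9 rose in dpy-27 embryos and did not pass the test in sdc-2 embryos, with a difference of 0.60 (SE 0.14, adjusted p = 0.00741). The 2 changes come from plate types whose values differ in spread. Of 30 groups searched for a sample far from the others, 1 was found: mrps-5 on wild-type egg-plate replicate B of date code 4 had a log2 value of 11.01, and the nearest other array had 10.88. That gap was 0.672 of the group's range, above the critical value of 0.625. For arrays drawn alike, chance alone gives about 1 such group in 20. The 6 arrays of this group pool date codes 2 and 4, so that rate may not hold.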

How the results depend on the processing

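In sdc-2 embryos the 44 members called lower became 28 after re-centring on autosomal medians, 23 at an adjusted p under 0.01, and 0 (median -0.31) with date as a random block. In dpy-27 embryos the 16 lower became 31 with the compared arrays alone, 29 with group and date means, 32 with array weights and 5 with the random block. The 2 higher became 1 under joint quantile normalisation, 1 at 0.01 and 0 with the random block, and the median became -0.21 after re-centring and -0.21 with the random block. In XO embryos over all dates the 17 lower became 10 with the compared arrays alone, 2 with the random block, 26 with array weights and 8 at 0.01. The 4 higher became 2 with _s_at and _x_at probe sets left out and 22 with the random block, whose median was 0.20. Within date code 2 the 2 lower became 1 with those left out and 1 after re-centring (median 0.37). Wild type of date code 4 against code 2 gave 0 lower and 43 higher after re-centring (median 0.38). The random block borrows between plate types that share a date. Re-centring moved the median of all genes by at most 0.10 in the mutant comparisons.

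Leaving out 1 array gave 23 to 43 lower in sdc-2 embryos, medians of -0.71 to -0.57, and 0 higher. It gave 12 to 15 lower, 1 to 2 higher and medians of -0.35 to -0.25 in dpy-27 embryos. XO embryos had 10 to 19 lower, 4 higher and medians of -0.19 to -0.06 over all dates, and 1 to 2 lower, 25 to 32 higher and medians of 0.26 to 0.34 within code 2. XO code 5 against code 2 had 41 to 48 lower (medians -0.57 to -0.47), and wild type code 4 against code 2 had 0 to 1 lower and 12 to 23 higher (medians 0.15 to 0.27). Deviations of same-lettered arrays correlated at -0.32 to 0.25 in the 3 comparisons, and those of other-lettered arrays at -0.30 to 0.30. With 3 arrays per group this cannot exclude a pairing by letter. With a replicate block the lower counts were 44 in sdc-2, 16 in dpy-27 and 8 in XO embryos over all dates. mrpl-44 reversed in dpy-27 embryos with _s_at and _x_at probe sets left out (0.96, adjusted p = 1.64e-06), and mrpl-30 in XO embryos with the random block (0.42, adjusted p = 0.0202). For named members, 1816 of the alternative values kept direction and call, 56 gained a call, 50 lost one and 2 reversed. Alternatives for the comparisons by date were chosen after seeing the data. The cause of the differences between alternatives was not tested.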
